A study of Mus musculus with 18 samples.

Results

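Col4a1, Col4a2, Lama1, Lama5, Lamb1, Lamc1, Nid1, Nid2, Hspg2 and Sparc, genes for the structural proteins of basement membranes and for a protein that binds them, were followed through the differentiation of mouse embryonic stem (ES) cells. They were chosen by symbol, and all 10 were present among the 26157 symbols of the day-2 count table and among the 54114 symbols of the table of days 8 and 16. All cells came from a mouse ES line with a tdTomato reporter for Msx1, a homeobox gene of craniofacial mesenchyme. The study asked whether forced expression of Dlx2, a homeobox gene of the pharyngeal arches, turns ES cells into ectomesenchyme, which is the face-building mesenchyme derived from the neural crest.

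The libraries form 7 groups of 2. Embryoid bodies (EBs, aggregates in which ES cells differentiate) with inducible Dlx2 overexpression and EBs with inducible GFP overexpression were taken at day 2. Both day-2 groups were read as induced with 1 µg/ml doxycycline, because the study design speaks of overexpressing EBs, although the column names do not state the drug. Msx1-positive and Msx1-negative cells were sorted by flow cytometry at days 8 and 16 from doxycycline-treated EBs of the Dlx2 genotype. The labels give no GFP group at these days, so every sorted cell came from a Dlx2-inducible culture. The ES group is labelled wild type and untreated. The labels name no promoter other than the doxycycline switch, and they do not say how many clones each line represents.

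Basement membranes are thin extracellular sheets under epithelia and around vessels and muscle. Laminins, each a trimer of an alpha, a beta and a gamma chain, form one polymer, and type IV collagen, a trimer mostly of chains encoded by Col4a1 and Col4a2, forms another. Nidogens and perlecan bridge the networks. In the early mouse embryo the primitive endoderm and its parietal descendants lay down such a membrane, rich in type IV collagen and in the laminin that holds the Lama1 chain.

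Total counts ran from 26211608 to 41552818 at day 2 and from 53797597 to 107770730 in the other table. Dlx2 stood at 4340 and 4720 CPM (counts adjusted for the depth and composition of each library) in Dlx2 EBs and at 0.0812 and 0.0808 CPM in GFP EBs, where each library held 2 counts. In the libraries labelled ES it stood at 219 and 222 CPM, which goes against a wild-type label. It was at 1140 and 1270 CPM in Msx1-positive and at 269 and 272 CPM in Msx1-negative cells of day 8. At day 16 it was at 288 and 341 against 131 and 146 CPM, so that Dlx2 and the sort differed together on both days. Msx1 was at 40.9 and 46.8 CPM in the positive and at 1.9 and 1.02 CPM in the negative fraction of day 8. At day 16 it was at 73.7 and 81.6 against 0.818 and 0.752 CPM. In these bulk libraries fewer cells of a type and less RNA per cell cannot be told apart. Nothing in the labels says that replicates came from separate cultures, so p-values measure only the spread between libraries, which may be technical. The smallest exact two-sided p for a single value, 2 libraries against 2, is 0.333. Every call therefore rests on the spread shared across genes in edgeR's quasi-likelihood test with Benjamini-Hochberg adjustment, in which adjusted p-values below 0.05 were calls.

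The 2 collagen genes lie head to head. In GENCODE on GRCm38, Col4a1 covers chr8:11198423-11312826 on the minus strand and Col4a2 chr8:11312805-11449287 on the plus strand. Their first exons share 22 bases on opposite strands, and the library kit does not mark strand, so reads from those bases cannot be assigned to one gene. Promoter windows of RefSeq on GRCm38.p6, from 250 bases before to 50 bases after a start site, were matched for 7 of the 10 genes. Windows of Lama1, Lamc1 and Nid2 were not matched. The windows of Col4a1 (chr8:11312777-11313076, minus strand) and Col4a2 (chr8:11312555-11312854, plus strand) are shown first because they are neighbours. Capitals mark the 78 bases they share, which are reverse complements of each other, and the start sites are 21 bases apart.
Col4a1: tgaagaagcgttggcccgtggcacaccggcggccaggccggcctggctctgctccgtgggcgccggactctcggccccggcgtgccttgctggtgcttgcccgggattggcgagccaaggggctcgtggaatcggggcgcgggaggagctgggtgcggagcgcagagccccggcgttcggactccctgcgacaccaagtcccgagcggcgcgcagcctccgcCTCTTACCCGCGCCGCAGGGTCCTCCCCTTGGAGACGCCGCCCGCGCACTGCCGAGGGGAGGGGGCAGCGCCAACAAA
Col4a2: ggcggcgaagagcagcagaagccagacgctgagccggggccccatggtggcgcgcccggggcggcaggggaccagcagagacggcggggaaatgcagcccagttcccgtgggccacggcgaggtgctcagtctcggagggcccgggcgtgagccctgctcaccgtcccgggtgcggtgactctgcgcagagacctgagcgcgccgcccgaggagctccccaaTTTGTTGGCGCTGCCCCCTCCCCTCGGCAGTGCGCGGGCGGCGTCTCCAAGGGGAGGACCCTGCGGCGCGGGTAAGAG
Of 27025 symbols with a window, 11.3% have a start on the opposite strand within 300 bases. Of the 7 genes with a window, 3 are among them, Lamb1 and the pair of Col4a1 and Col4a2. The windows of Lamb1 (chr12:31265043-31265342, plus strand) and Lama5 (chr2:180225810-180226109, minus strand) come next. They were picked by level, as those of a laminin gene that moved with the collagens and of one that did not. A link between sequence and level was not tested. In these windows capitals mark matches on either strand to GGGCGG, the GC box, and to CCAAT.
Lamb1: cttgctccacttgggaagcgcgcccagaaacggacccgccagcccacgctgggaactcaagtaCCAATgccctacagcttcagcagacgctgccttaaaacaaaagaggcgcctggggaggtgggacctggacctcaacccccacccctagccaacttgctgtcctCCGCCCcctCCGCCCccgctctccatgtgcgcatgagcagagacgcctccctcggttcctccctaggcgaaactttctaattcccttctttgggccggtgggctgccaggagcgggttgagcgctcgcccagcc
Lama5: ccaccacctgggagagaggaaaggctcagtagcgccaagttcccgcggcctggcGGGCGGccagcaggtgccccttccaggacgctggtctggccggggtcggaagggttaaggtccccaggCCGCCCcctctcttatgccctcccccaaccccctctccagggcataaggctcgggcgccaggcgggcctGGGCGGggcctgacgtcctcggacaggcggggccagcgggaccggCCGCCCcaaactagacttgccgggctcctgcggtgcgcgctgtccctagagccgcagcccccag
The letters GGGCGG occur on either strand in 6 of the 7 windows and in 35.7% of all 32851 windows. CCAAT occurs in 4 of 7, in Col4a1, Col4a2, Lamb1 and Nid1, and in 37.4% of all windows. TATAAA occurs in 0 of 7 and in 13.6% of all. The windows are rich in G and C, from 55.3% in Sparc to 74% in Col4a1, beside a median of 52.7% over all windows. A match describes letters and does not show a bound factor.

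Type IV collagen rose with Dlx2 at day 2 and reached its highest level of the series in Msx1-negative cells at day 16. Col4a1, which encodes the alpha-1 chain, stood at 364 and 365 CPM in Dlx2 EBs and at 77.3 and 84.6 CPM in GFP EBs. Its partner Col4a2 was at 169 and 170 against 50.6 and 53.9 CPM. Both Dlx2 libraries lay above both GFP libraries for each gene. The log2 change was 2.17 ± 0.054 (SE) for Col4a1 (edgeR adjusted p = 1.6e-19) and 1.7 ± 0.054 for Col4a2 (edgeR adjusted p = 1.61e-17).

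In the sorted cells the order of the fractions turned over between the days. At day 8 Col4a1 was at 335 and 357 CPM in Msx1-positive and at 183 and 184 CPM in Msx1-negative cells. Col4a2 was at 212 and 243 against 98.1 and 98.1 CPM. The positive cells were higher in both genes, by a log2 change of 0.91 ± 0.068 for Col4a1 (edgeR adjusted p = 2.64e-08) and 1.21 ± 0.079 for Col4a2 (edgeR adjusted p = 6.5e-09). At day 16 the negative cells were higher: Col4a1 was at 6530 and 6680 CPM there and at 907 and 792 CPM in the positive cells. Col4a2 was at 3510 and 3730 against 684 and 595 CPM. The log2 change from negative to positive was -2.96 ± 0.072 (edgeR adjusted p = 9.28e-14) for Col4a1 and -2.5 ± 0.081 for Col4a2 (edgeR adjusted p = 1.91e-12). The test of the difference between the days gave -3.88 ± 0.098 for Col4a1 (edgeR adjusted p = 1.17e-11) and -3.72 ± 0.11 for Col4a2 (edgeR adjusted p = 3.69e-11).

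From day 8 to day 16 both fractions gained type IV collagen. In Msx1-negative cells Col4a1 rose 36-fold and Col4a2 36.9-fold, log2 changes of 5.17 ± 0.08 and 5.21 ± 0.092. They were the 251st and 250th largest changes of 22294 genes tested. In Msx1-positive cells the gains were 2.45-fold and 2.81-fold. Col4a1 was the third most abundant gene by CPM in both day-16 Msx1-negative libraries. Over the 5 groups of the later table the order of both genes was ES lowest (73.2 and 76.1 CPM for Col4a1, 26.6 and 23.7 CPM for Col4a2), then day 8 negative, day 8 positive, day 16 positive and day 16 negative, and no neighbours in that order overlapped.

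**Figure D1:**
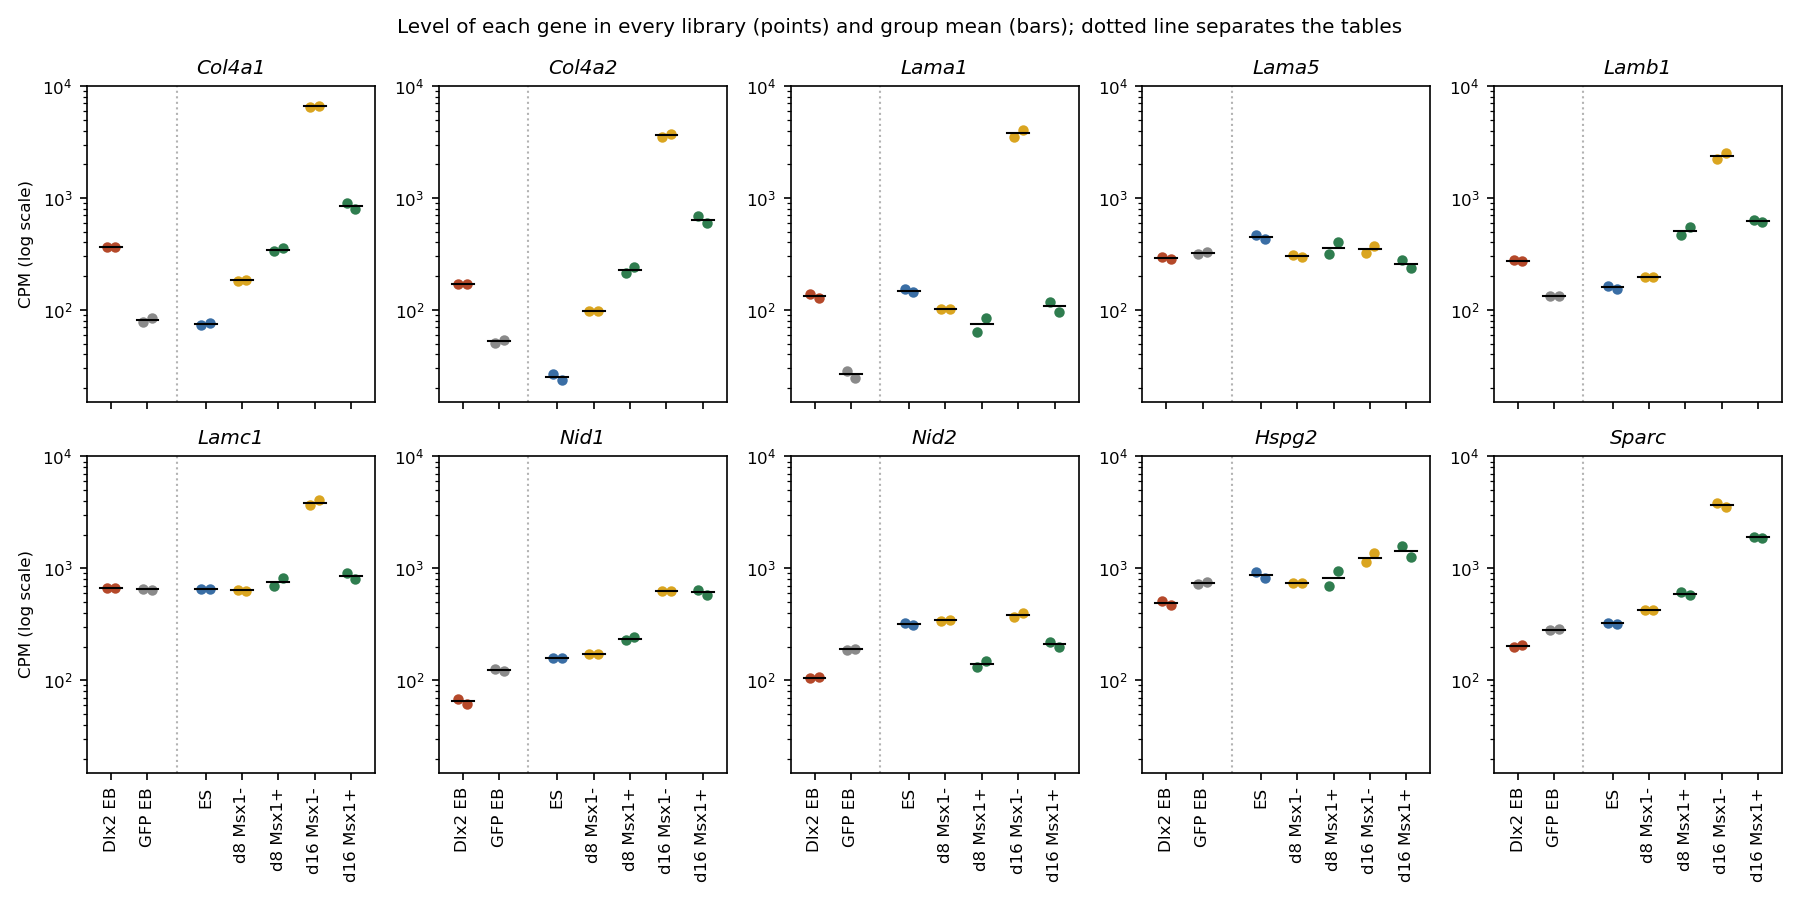
CPM (log scale) of each of the 10 genes in every library, with 1 point per library and a bar at the group mean; the dotted line separates the day-2 table from the other, since these were scaled separately. Col4a1 reached 6530 and 6680 CPM and Lama1 3470 and 4060 CPM in Msx1-negative cells of day 16, above every other library of that table, whereas Lama5 ran only from 237 to 468 CPM.

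Levels per exon length allow the chains to be compared with each other. TPM (counts per kilobase of exon, scaled to the same total in every library) of Col4a1 was above that of Col4a2 in every library. The common trimer of the protein holds more alpha-1 than alpha-2 chains. The TPM ratio of Col4a1 to Col4a2 was lowest in day 16 Msx1-positive cells, at 1.18 and 1.18, and was 1.36 and 1.39 in GFP EBs. It was 1.91 and 1.9 in Dlx2 EBs, above both GFP libraries. At day 8 it was 1.41 and 1.3 in positive and 1.65 and 1.66 in negative cells, and day 16 negative cells had 1.65 and 1.59. The libraries labelled ES had the highest ratio, 2.44 and 2.85, at the lowest levels of both genes.

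Among the laminin alpha chains, Lama1 and Lama5 moved apart. Lama1 encodes the alpha-1 chain of embryonic basement membranes and Lama5 the alpha-5 chain, which is widespread in later tissues. At day 2 Lama1 was at 139 and 129 CPM with Dlx2 and at 28.2 and 24.8 CPM with GFP, a log2 change of 2.34 ± 0.068 (edgeR adjusted p = 3.18e-18). Lama5 was at 295 and 284 against 315 and 329 CPM. This difference of -0.15 ± 0.048 was called (edgeR adjusted p = 0.00827), but with scaling by library size alone it was 0.02 (adjusted p = 0.708), and without Dlx2 replicate 2 it was -0.12 (adjusted p = 0.0966).

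At day 8 Lama1 stood at 63.4 and 85.3 CPM in Msx1-positive and at 102 and 101 CPM in Msx1-negative cells. The groups did not overlap, and the log2 change of -0.45 ± 0.16 was not called (edgeR adjusted p = 0.0538). It was called without day 8 positive replicate 2 (-0.68, adjusted p = 0.000559), without day 16 negative replicate 1 (-0.48, adjusted p = 0.0446) and in DESeq2 (-0.5, adjusted p = 0.0271). At day 16 the gap was far wider: Lama1 was at 3470 and 4060 CPM in Msx1-negative and at 118 and 96.6 CPM in Msx1-positive cells. The log2 change of -5.13 ± 0.19 (edgeR adjusted p = 2.92e-07) was the 511th largest of 22294. Between the days Lama1 rose 37.1-fold in the negative cells. In the positive cells it rose 1.44-fold (edgeR adjusted p = 0.0345), which was no longer called without day 8 negative replicate 1 (adjusted p = 0.0658) or replicate 2 (0.0648), or without day 16 positive replicate 1 (0.197). The call for Lama1 in positive cells was also lost with library size alone (0.41, edgeR adjusted p = 0.061). Without a filter on low counts it was lost as well (0.51, edgeR adjusted p = 0.131). The difference of the sorting effect between the days was -4.69 ± 0.24 (edgeR adjusted p = 1.06e-05).

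Lama5 stayed within a narrow range. In the later table its lowest library was a day 16 Msx1-positive one at 237 CPM and its highest was labelled ES at 468 CPM. At day 8 it was at 315 and 401 CPM in positive and at 307 and 299 CPM in negative cells, a difference of 0.24 ± 0.12 that was not called (edgeR adjusted p = 0.14). Without day 8 positive replicate 1 it was 0.4 and was called (adjusted p = 0.00237). At day 16 it was at 280 and 237 against 324 and 373 CPM, a change of -0.43 ± 0.12 (edgeR adjusted p = 0.0143). Without day 16 positive replicate 2 this was -0.31 (adjusted p = 0.0991), and without day 16 negative replicate 2 it was -0.33 (adjusted p = 0.0807). The difference between the days was -0.67 ± 0.17 (edgeR adjusted p = 0.0202), and it lost its call without day 8 negative replicate 1 or 2, day 16 positive replicate 2 or day 16 negative replicate 2 (adjusted p = 0.0664, 0.0808, 0.0674 and 0.0556). With time Lama5 fell by 0.47 (SE 0.12) in positive cells (edgeR adjusted p = 0.0131), which was lost without day 16 positive replicate 2 (adjusted p = 0.0888). In negative cells it was not called (0.2 ± 0.12, edgeR adjusted p = 0.256).

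Per length, Lama1 exceeded Lama5 in 1 group only. The TPM ratio of Lama1 to Lama5 was 12.6 and 12.8 in day 16 Msx1-negative cells. In every other library it was below 1: 0.105 and 0.0886 with GFP, 0.554 and 0.535 with Dlx2, 0.384 and 0.396 in the libraries labelled ES. In the sorted cells of day 8 it was 0.237 and 0.25 in positive and 0.39 and 0.397 in negative cells, and in day 16 positive cells it was 0.496 and 0.479. Lama1 and Lama5 summed, set against Lamc1, gave 0.87 and 0.92 in day 16 negative cells and 0.315 to 0.718 in the other libraries. The shared gamma-1 chain was thus above these alpha chains per length in every library. Other alpha chains were left out of the sum. In day 16 positive cells Lama4 was at 81 and 71.9 TPM and Lama2 at 20.7 and 16 TPM, beside 94.1 and 76.9 TPM for Lama5. In day 16 negative cells Lama4 was at 2.7 and 3.21 TPM and Lama2 at 0.396 and 0.337 TPM.

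**Figure D2:**
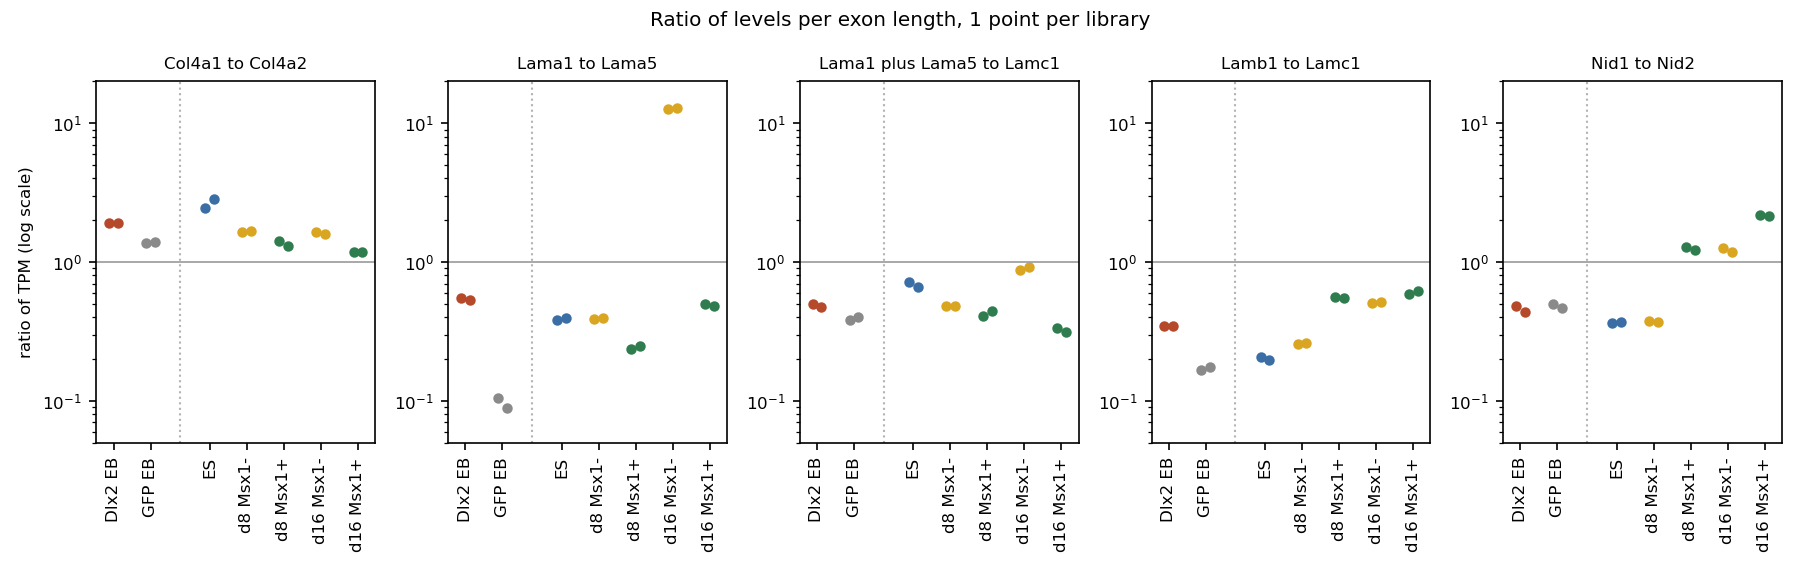
Ratio of TPM (log scale) between chains that assemble or act together, with 1 point per library and the horizontal line at equal levels; the dotted line separates the tables. Lama1 to Lama5 stands at 12.6 and 12.8 in day 16 Msx1-negative cells and below 1 in all other libraries.

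Lamb1 and Lamc1 encode the beta-1 and gamma-1 chains, which several laminins contain. Lamb1 rose at day 2, from 132 and 134 CPM with GFP to 278 and 274 CPM with Dlx2, a log2 change of 1.05 ± 0.048 (edgeR adjusted p = 1.02e-14). Lamc1 was at 667 and 664 CPM with Dlx2 and at 656 and 643 CPM with GFP, and was not called (0.03 ± 0.046, edgeR adjusted p = 0.531). Scaling by library size alone, which moved the median of all genes from 0.02 to 0.2, gave 0.21 for Lamc1 (adjusted p = 0.000297).

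At day 8 Lamb1 was at 468 and 547 CPM in Msx1-positive and at 198 and 198 CPM in Msx1-negative cells, the largest of the 10 sorting differences of that day (1.35 ± 0.078, edgeR adjusted p = 1.64e-09). Lamc1 was at 694 and 828 against 645 and 629 CPM (0.25 ± 0.084, edgeR adjusted p = 0.0195). This call was lost without day 8 positive replicate 2 (adjusted p = 0.253) and without day 8 negative replicate 1 or 2 (0.117 and 0.177). With RLE scaling the Lamc1 difference of day 8 was 0.2 and was not called (edgeR adjusted p = 0.067). At day 16 both genes were higher in the negative cells. Lamb1 was at 2240 and 2530 against 641 and 605 CPM (-1.94 ± 0.079, edgeR adjusted p = 2.28e-11), and Lamc1 at 3680 and 4070 against 913 and 810 CPM (-2.17 ± 0.088, edgeR adjusted p = 4.34e-11). The difference between the days was -3.29 ± 0.11 for Lamb1 (edgeR adjusted p = 7.11e-11) and -2.43 ± 0.12 for Lamc1 (edgeR adjusted p = 5.91e-09).

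Over time in the negative cells Lamb1 rose 12-fold and Lamc1 6.08-fold. In the positive cells Lamb1 rose 1.23-fold (edgeR adjusted p = 0.00531), a call that was lost without day 8 positive replicate 1 (adjusted p = 0.0753), and Lamc1 was not called (0.18 ± 0.084, adjusted p = 0.103). Without day 8 positive replicate 2, Lamc1 was called (0.31, adjusted p = 0.00598). Per length, Lamb1 was below Lamc1 in every library, by a margin that depended on the length used. With lengths of the longest transcript the ratio was 0.889 and 0.87 in day 8 positive and 0.926 and 0.985 in day 16 positive cells. The lowest ratio with those lengths was 0.265, in a GFP library. The values that follow use the exon lengths of TPM. The TPM ratio of Lamb1 to Lamc1 was 0.168 and 0.174 with GFP, 0.348 and 0.345 with Dlx2 and 0.208 and 0.197 in the libraries labelled ES. It was 0.563 and 0.551 in positive and 0.256 and 0.263 in negative cells of day 8, and by day 16 it lay between 0.508 and 0.623 in all 4 sorted libraries.

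Nid1 and Nid2 encode nidogens, which bind laminin and type IV collagen. At day 2 both fell with Dlx2. Nid1 was at 67.7 and 62 against 125 and 121 CPM (-0.92 ± 0.056, edgeR adjusted p = 2.08e-12), and Nid2 at 104 and 106 against 187 and 192 CPM (-0.86 ± 0.049, edgeR adjusted p = 6.64e-13). The Dlx2 libraries lay below the GFP libraries for each gene.

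In the sorted cells the nidogens went opposite ways at day 8. Nid1 was at 228 and 243 CPM in Msx1-positive and at 172 and 172 CPM in Msx1-negative cells (0.45 ± 0.063, edgeR adjusted p = 2.35e-05). Nid2 was at 132 and 148 against 340 and 345 CPM (-1.29 ± 0.071, edgeR adjusted p = 1.09e-09), the only one of the 10 genes called lower in positive cells that day. At day 16 Nid1 was at 647 and 577 CPM in positive and at 628 and 634 CPM in negative cells; the groups overlapped, and the difference was not called (-0.05 ± 0.063, edgeR adjusted p = 0.534). Nid2 was again lower in positive cells, at 222 and 199 against 371 and 401 CPM (-0.88 ± 0.071, edgeR adjusted p = 5.01e-08).

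Nid1 rose with time in both fractions, 2.6-fold in positive (edgeR adjusted p = 2.89e-10) and 3.66-fold in negative cells (edgeR adjusted p = 2.61e-11), with a difference of the sorting effect of -0.5 ± 0.089 (adjusted p = 0.000675). Nid2 rose 1.5-fold in positive cells (edgeR adjusted p = 8.35e-06). In negative cells its change of 0.17 ± 0.07 was not called (edgeR adjusted p = 0.069). It was called there without either of the day 8 positive libraries (adjusted p = 0.0407 and 0.0413). The difference of the sorting effect for Nid2 was 0.41 ± 0.1 (edgeR adjusted p = 0.00612), the only one of the 10 called in the upward direction. With scaling by library size alone it was 0.22 and was not called (adjusted p = 0.0834). The TPM ratio of Nid1 to Nid2 was below 1 at day 2, in the libraries labelled ES and in day 8 negative cells, from 0.361 to 0.498. It was 1.28 and 1.22 in day 8 positive cells, 2.17 and 2.16 in day 16 positive cells and 1.26 and 1.18 in day 16 negative cells. Exons of Nid1 share 143 bases with Gm48682, and those of Nid2 437 bases with Rtraf, both on the opposite strand, so these reads cannot be told apart.

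Hspg2 encodes perlecan, the large heparan sulfate proteoglycan of basement membranes. It was at 510 and 470 CPM with Dlx2 and at 729 and 752 CPM with GFP, and fell by 0.59 on the log2 scale (SE 0.05, edgeR adjusted p = 5.37e-10). It was called in neither sort: 690 and 941 CPM in positive and 747 and 739 CPM in negative cells of day 8 (0.13 ± 0.19, edgeR adjusted p = 0.6), and 1570 and 1260 against 1130 and 1370 CPM at day 16 (0.17 ± 0.19, edgeR adjusted p = 0.462). The groups overlapped on both days. Without a filter on low counts, the rises of Hspg2 with time given next were not called. They were then 0.78 in positive and 0.75 in negative cells (edgeR adjusted p = 0.0843 and 0.108). With time it rose 1.73-fold in positive cells (edgeR adjusted p = 0.0171), which was lost without day 16 positive replicate 1 (adjusted p = 0.0936). In negative cells it rose 1.68-fold (edgeR adjusted p = 0.0256), which was lost without day 8 negative replicate 1 or 2 (adjusted p = 0.125 and 0.133) and without day 16 negative replicate 2 (0.101).

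Sparc encodes a secreted glycoprotein that binds type IV collagen and is abundant in parietal endoderm and in many mesenchymal cells. It was at 199 and 205 CPM with Dlx2 and at 279 and 288 CPM with GFP, a log2 change of -0.49 ± 0.048 (edgeR adjusted p = 5.21e-09). At day 8 it was at 611 and 576 CPM in positive and at 422 and 425 CPM in negative cells (0.48 ± 0.059, edgeR adjusted p = 5.08e-06). At day 16 the order was the reverse, 1910 and 1870 against 3810 and 3540 CPM (-0.96 ± 0.059, edgeR adjusted p = 2.2e-09). Sparc rose with time in both fractions, 3.18-fold in positive and 8.67-fold in negative cells. The difference of the sorting effect was -1.45 ± 0.083 (edgeR adjusted p = 1.37e-08). Sparc was also the gene of the 10 with the highest TPM in all 8 sorted libraries, from 354 to 3430.

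**Figure D3:**
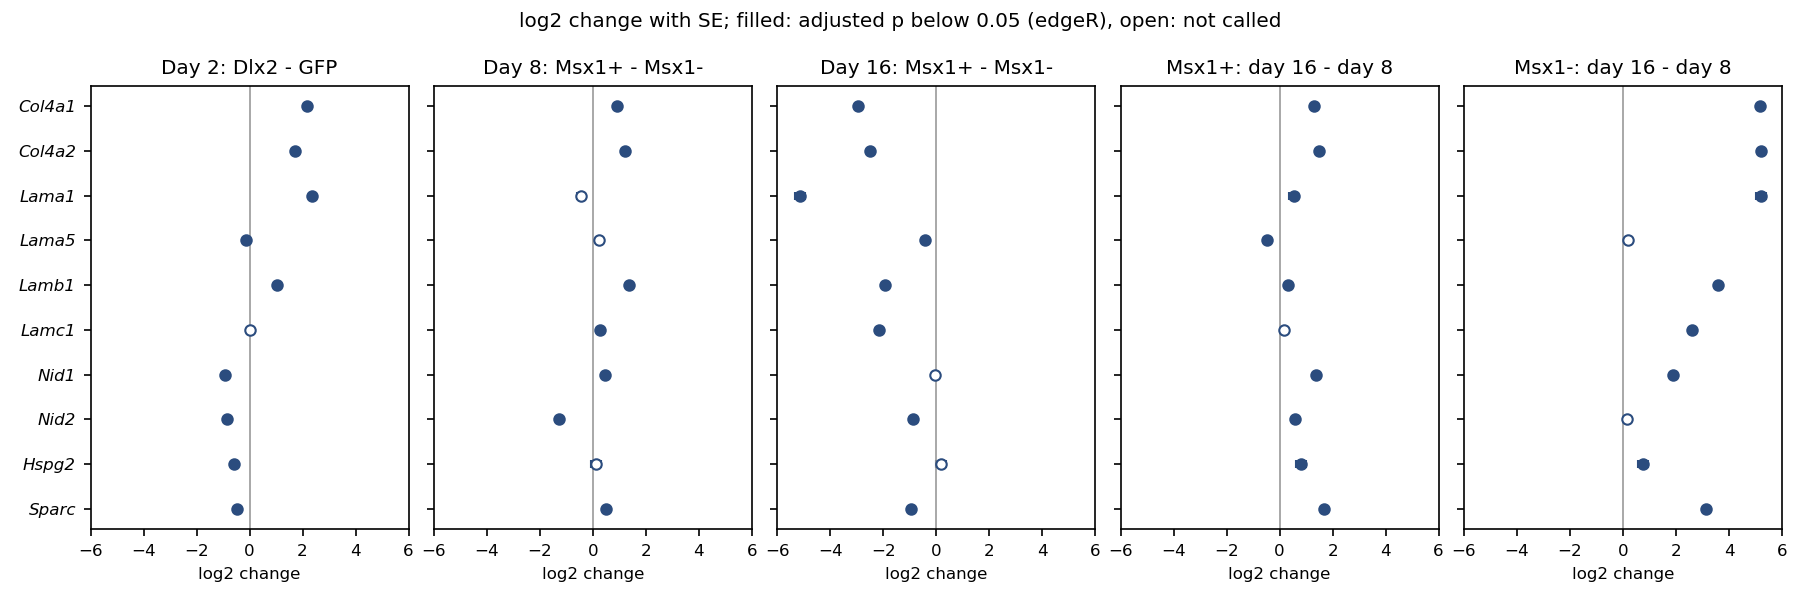
log2 change of each gene with its SE in each comparison; filled points were called at an edgeR adjusted p below 0.05 and open points were not. The 6 genes called higher in the sort of day 8 were Col4a1, Col4a2, Lamb1, Lamc1, Nid1 and Sparc. At day 16 Col4a1 (-2.96), Col4a2 (-2.5), Lamb1 (-1.94), Lamc1 (-2.17) and Sparc (-0.96) lie left of zero, and Nid1 (-0.05) was not called. Lama1 lies farthest left there, at -5.13.

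At day 2, 4 of the 10 genes were higher and 5 lower with Dlx2, where 34.1% of 18650 genes tested were called higher and 33% lower. The median log2 change of the 10 was -0.06, beside 0.02 over all genes. Of all calls, 50.8% were higher with TMM scaling and 63.6% with library size alone. In the day 8 sort 6 were higher and 1 lower, against 30.4% and 24.3% of 22294 genes, with a median of 0.35 beside 0.06; 55.6% of all calls were higher, and 66.8% with library size alone. At day 16, 0 were higher in positive cells and 8 lower, against 31.1% and 31%, with a median of -1.45 beside -0.02. The 2 genes that were not called were Nid1 and Hspg2. For the difference between the sorting effects 1 was higher and 8 lower, against 10.3% and 18.3%, with a median of -1.94 beside -0.1; 35.9% of all calls were higher, and 15.5% with library size alone. With time, 8 were higher and 1 lower in positive cells, against 21.1% and 24.8% (median 0.69 beside -0.03), and 8 were higher and 0 lower in negative cells, against 19.7% and 17.8% (median 2.86 beside 0.01). Of all calls, 46% were higher in positive and 52.5% in negative cells, and 34.7% and 62.9% with library size alone. The fold changes with time and the sort of each day come from the same 8 libraries.

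Together the 10 genes took 2.63% and 2.77% of all counts in day 16 Msx1-negative libraries. In day 16 positive libraries they took 0.785% and 0.698%, and in the other 10 libraries between 0.242% and 0.465%. In day 16 negative cells Lama1 ranked 8 and 6 in abundance by CPM and Sparc 5 and 9.

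The 4 sorted groups were also set against the libraries labelled ES, which all 4 comparisons share. Col4a1 was higher than in these libraries by 2.21 ± 0.066 and 1.3 ± 0.065 in positive and negative cells of day 8, and by 3.51 ± 0.069 and 6.47 ± 0.079 at day 16. The last of these is 88.5-fold, and Col4a2 was 144-fold higher there. Lamb1 was higher by 1.68 ± 0.075, 0.32 ± 0.074, 1.98 ± 0.076 and 3.91 ± 0.082 in the same order, and Sparc by 0.88 ± 0.055, 0.39 ± 0.055, 2.55 ± 0.057 and 3.51 ± 0.06. Lama1 went the other way in 3 groups: ES libraries stood at 153 and 144 CPM, and the changes were -0.99 ± 0.16, -0.55 ± 0.16 and -0.46 ± 0.16 (edgeR adjusted p = 0.00103, 0.0346 and 0.0318), before 4.67 ± 0.18 in day 16 negative cells. The call in day 8 negative cells was lost without any 1 of the ES and day 8 negative libraries (adjusted p = 0.0987 to 0.149). The call in day 16 positive cells was lost without ES replicate 1 (adjusted p = 0.126) or 2 (0.0738), day 8 negative replicate 1 (0.0548) or 2 (0.055), or day 16 positive replicate 2 (0.173). Nid2 was lower than in the libraries labelled ES in positive cells of both days (-1.18 ± 0.067 and -0.6 ± 0.067). In all, 6, 4, 7 and 8 of the 10 were higher and 3, 2, 3 and 1 lower in day 8 positive, day 8 negative, day 16 positive and day 16 negative cells. The shares of all 22504 genes called were 34.6% and 26.9%, 19% and 14.5%, 37.3% and 33.7%, and 28.5% and 24.5% in the same order.

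The other chains of both families were counted from a fixed list of 11 genes, of which 10 were tested. Lama2, Lama4 and Col4a5, encoding chains of muscle, vascular and epithelial basement membranes, had the largest called changes upward in Msx1-positive cells on both days among chains with a mean of at least 1 CPM. Lama4 was at 68.3 to 75.7 CPM in positive and at 1.79 to 2.35 CPM in negative cells of day 8, and at 235 to 256 against 9.55 to 11.1 CPM at day 16. Its log2 changes were 5.11 ± 0.12 and 4.57 ± 0.1, those of Lama2 were 5.8 ± 0.18 and 5.51 ± 0.15, and those of Col4a5 3.24 ± 0.1 and 2.49 ± 0.083. These chains were thus higher in positive cells at day 16, where Col4a1, Col4a2 and Lama1 were lower. Of the list, 7 were higher and 1 lower in each sort, beside 30.4% and 24.3% of all genes at day 8 and 31.1% and 31% at day 16, Lama3 being the lower one (-0.43 ± 0.083 and -2.29 ± 0.095). For the difference between the days, 0 were higher and 5 lower, beside 10.3% and 18.3% of all genes. At day 2, 7 were higher and 3 lower with Dlx2, beside 34.1% and 33%, among them Lama2 (2.42 ± 0.28), Lama4 (1.29 ± 0.19) and Col4a5 (1.09 ± 0.13) upward and Lama3 (-0.86 ± 0.088) and Lamb3 (-0.82 ± 0.19) downward.

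Genes that modify, fold, export and crosslink collagens, type IV among them, were counted from a list of 12. Col1a1, for a chain of another collagen, rose from day 8 to day 16 by 5.63 ± 0.18 in negative and 4.43 ± 0.16 in positive cells. Which collagen the listed genes served in these cells was not tested. With time all 12 were higher at day 16 in both fractions, where 19.7% of all genes were higher in negative and 21.1% in positive cells, with a median of 2.07 in negative and 0.85 in positive cells. Plod2, a lysyl hydroxylase of collagen, was at 102 and 105 CPM in negative cells of day 8 and at 509 and 497 CPM at day 16. It was at 128 and 122 and then at 180 and 192 CPM in positive cells. Serpinh1, the collagen chaperone, rose by 2.9 ± 0.058 in negative and 1.71 ± 0.055 in positive cells, and Loxl2, a lysyl oxidase that crosslinks type IV collagen, by 3.56 ± 0.11 and 2.61 ± 0.095. In the day 8 sort 10 of the 12 were higher and 0 lower in positive cells, beside 30.4% and 24.3% of all genes. At day 16, 7 were higher and 3 lower, beside 31.1% and 31%, the lower ones being Plod2 (-1.44 ± 0.057) and the prolyl hydroxylase subunits P4ha1 (-1.21 ± 0.054) and P4ha2 (-1.17 ± 0.058). At the same time P4ha3 (3.68 ± 0.15), Loxl2 (1.67 ± 0.092) and Pxdn (1.44 ± 0.066), the last a peroxidase that crosslinks type IV collagen, were higher in positive cells. The difference between the days was called lower for 8 and higher for 0, beside 18.3% and 10.3% of all genes. At day 2, 4 were higher and 5 lower, beside 34.1% and 33%, with P4ha2 at 1.15 ± 0.094 and P4ha1 at -0.89 ± 0.091.

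Of 16 other basement membrane components, 14 were higher and 1 lower in positive cells of day 8, beside 30.4% and 24.3% of all genes, and 12 higher and 3 lower at day 16, beside 31.1% and 31%. Col15a1, a collagen of basement membrane zones, was higher by 5.03 ± 0.12 and 4.9 ± 0.093, and Fbln5, a fibulin of elastic fibres, by 4.72 ± 0.1 and 4.75 ± 0.098. Tinagl1, a matrix protein that binds laminin, was among the 3 lower at day 16 (-1.79 ± 0.068), with Smoc1 (-1.38 ± 0.083) and Col18a1 (-0.2 ± 0.067). Tinagl1 was at 26.8 to 29 CPM in negative cells of day 8 and at 269 to 275 CPM at day 16. At day 2, 8 were higher and 6 lower, beside 34.1% and 33%, with Fbln5 at 6.95 ± 0.17 and Tinagl1 at -2.17 ± 0.091.

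The receptors were counted from a list of 13 genes: integrins, dystroglycan, discoidin receptors, syndecans and Bcam, a laminin-binding cell adhesion molecule. In positive cells 10 were higher and 2 lower at day 8, beside 30.4% and 24.3% of all genes, and 6 higher and 6 lower at day 16, beside 31.1% and 31%. Ddr2, a collagen receptor, was higher by 4.56 ± 0.092 and 4.57 ± 0.079. The laminin receptor gene Itga6 was lower at day 16 (-0.8 ± 0.061), and Itga1, for a collagen-binding integrin, higher (3.35 ± 0.15). At day 2, 5 of 12 tested were higher and 5 lower, beside 34.1% and 33% of all genes.

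Markers of cell types that make basement membrane were counted beside these results. A list of 12 genes of primitive and parietal endoderm summed to 1390 to 1430 CPM in day 16 Msx1-negative cells and to 653 to 654 CPM in day 16 positive cells. At day 8 the sums were 178 to 179 CPM in negative and 291 to 301 CPM in positive cells. Pdgfra made up 17.9 and 16.8 CPM of the negative and 120 and 129 CPM of the positive sums. The day 8 sort called 6 higher and 4 lower in positive cells, beside 30.4% and 24.3% of all genes. Plat (3.68 ± 0.15) and Fst (2.12 ± 0.11) were among the higher, and Cubn (-2.57 ± 0.13), Sox7 (-0.77 ± 0.17) and Sox17 (-0.62 ± 0.13) among the lower. With time all 12 were higher in negative cells, beside 19.7% of all genes. In positive cells 10 were higher and 1 lower with time, beside 21.1% and 24.8%, with a median log2 change of 1.56 against 3.75 in negative cells. The day 16 sort called 9 lower and 3 higher in positive cells, beside 31% and 31.1% of all genes. The higher ones were Plat, Pdgfra and Thbd. Sox17 was at 80.6 and 85.7 CPM in negative and at 8.7 and 10.4 CPM in positive cells of day 16, and Gata4 at 163 and 165 against 39.2 and 39.5 CPM. At day 2, 8 of 12 were higher and 0 lower, beside 34.1% and 33% of all genes. The list summed there to 308 to 319 CPM with Dlx2 and to 23.1 to 25.7 CPM with GFP. Pdgfra, which mesenchyme also expresses, made up 241 and 227 CPM of this, and without it the sums were 78.2 to 80.6 against 22 to 24.6 CPM. No gene of the list was at 0 in any group. The part of these cells in the collagen and laminin levels was not tested.

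Other marker lists moved as well. Visceral endoderm genes summed to 104 to 108 CPM in negative and 77.3 to 84.5 CPM in positive cells of day 16. At day 8 the sums were 19.2 to 19.8 and 16.5 to 17.4 CPM in the same order. With time 9 of 10 were higher in negative and 8 of 10 in positive cells, beside 19.7% and 21.1% of all genes. Endothelial genes summed to 280 to 307 CPM in day 16 negative and 106 to 116 CPM in day 16 positive cells. Of these sums, Pecam1 made up 133 and 138 CPM in negative and 10.1 and 9.2 CPM in positive cells. Pecam1 was also at 104 and 101 CPM in the libraries labelled ES. The day 16 sort called 3 higher and 5 lower in positive cells, beside 31.1% and 31% of all genes. Kdr was at 26.2 and 24.2 CPM in positive and at 3.76 and 5.19 CPM in negative cells. Cdh5 went the opposite way, at 10.3 and 10.6 CPM in positive and at 56.3 and 63.3 CPM in negative cells. So did Tek, at 7.76 and 7.05 against 26.2 and 32.5 CPM. In the libraries labelled ES, Cdh5 was at 0.174 and 0.274 CPM and Tek at 23.1 and 20.7 CPM. Epithelial genes summed to 2000 to 2040 CPM in negative and 1070 to 1110 CPM in positive cells of day 16. Against the libraries labelled ES, 5 of the 9 were higher and 4 lower in these negative cells, beside 28.5% and 24.5% of all genes. Cdh1 was at 588 and 567 CPM in ES and at 391 and 422 CPM in the negative cells. Krt8 was at 13.8 and 14.3 against 638 and 648 CPM. In the day 16 sort all 9 were lower in positive cells, beside 31% of all genes. Mesenchyme genes went the other way, with 18500 to 19800 CPM in positive and 915 to 1010 CPM in negative cells of day 16. At day 8 they summed to 2750 to 3070 against 142 to 144 CPM. All 12 were higher in positive cells on both days, beside 30.4% of all genes at day 8 and 31.1% at day 16. Smooth muscle and pericyte genes summed to 1590 CPM in both positive libraries of day 16 and to 272 to 289 CPM in the negative ones. Pluripotency genes summed to 3970 to 4150 CPM in negative and 240 to 254 CPM in positive cells of day 16. In the day-2 EBs mesenchyme genes summed to 1630 to 1650 CPM with Dlx2 and 79.4 to 81.7 CPM with GFP, and pluripotency genes to 1190 to 1230 against 5910 to 6000 CPM. Of defining markers, Fgb was at 0 in day 8 positive cells, and Ttr, Apoa4, Fgb, Emcn, Acta2, Prrx1 and Postn were at 0 in the libraries labelled ES. Ttr, Apoa4, Fgb and Emcn are not listed in the day-2 table, whose lowest summed count per symbol is 5, and have no value there. Their part in the results was not tested.

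**Figure D4:**
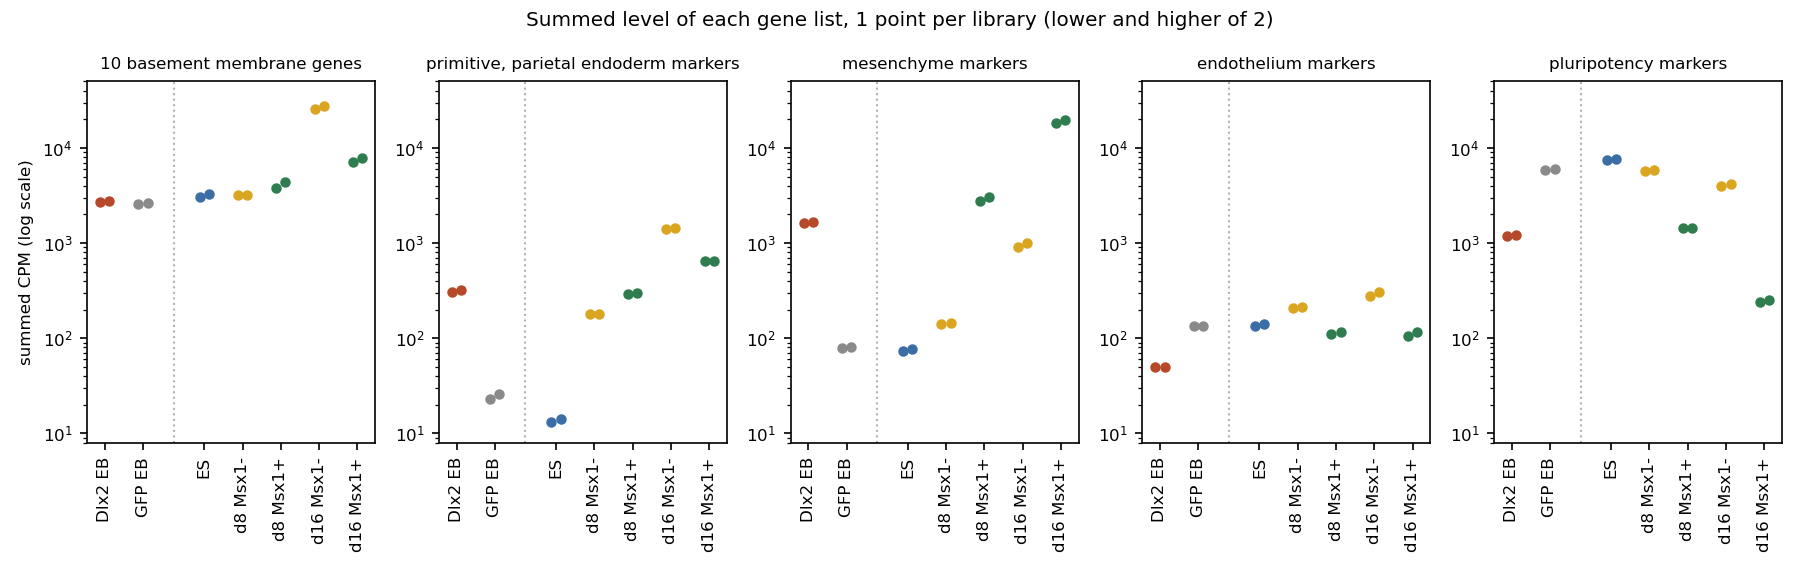
Summed CPM (log scale) of the 10 basement membrane genes and of the marker lists in each group, with points at the lower and the higher of 2 libraries; the dotted line separates the tables. The basement membrane genes and the primitive and parietal endoderm markers are both highest in day 16 Msx1-negative cells, at 25700 to 27400 CPM and 1390 to 1430 CPM. The endothelium markers are also highest in that group.

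The 10 genes have long transcripts, and replicates of a group differed with length. Across genes of day 8 Msx1-positive cells, Spearman's rho between the log2 ratio of replicate 2 to replicate 1 and union exon length was 0.32 over 9969 genes, which are not independent replicates. It was -0.44 for Dlx2, -0.22 for GFP, -0.02 for ES, -0.25 for day 8 negative, -0.35 for day 16 positive and 0.3 for day 16 negative libraries. Within day 8 positive cells the log2 ratio of the replicates was 0.45 for Hspg2 with 14307 exon bases, 0.43 for Lama1 with 9681 and 0.35 for Lama5 with 11388, but -0.09 for Sparc with 3788. Lamb1 with 9917 bases had a ratio of 0.22 and Lamc1 with 8272 bases 0.26, so the order of these ratios was not that of length. When the length trend of each library was removed, Lama1 at day 8 was called lower in positive cells (-0.71, edgeR adjusted p = 0.00234), Lamc1 was not called (0.02, adjusted p = 0.792), and Nid1 at day 16 was called lower (-0.23, adjusted p = 0.00221). The day 16 differences of Col4a1, Col4a2, Lama1, Lamb1 and Lamc1 kept their direction and call.

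Likeness was measured as Pearson's r of log2 CPM over the 10 libraries of the later table, among 10120 genes with a mean of at least 10 CPM. These libraries are 5 groups of 2, so r mostly describes group means. The gene most like Col4a1 was Plod2 (r = 0.997), followed by Col4a2 (0.99), Mbnl3 (0.985), Abhd5 and Cited1 (0.982 each). Lamb1 was 6th, Sparc 19th and Lama1 275th. Lama1 was most like AI661453 (0.993), Tfpi (0.99), Lamc1 (0.967), Lpcat4 (0.966) and Sema4g (0.963), and Col4a1 was 83rd. Lama5 stood apart from the other 9 members, none of which passed an r of 0.215, and was most like Ercc6 (0.936), Pkp3 (0.932), Ankrd13a (0.921), Cdk18 (0.914) and Mfn1 (0.903). Sparc was most like Adamts9 (0.997), Tram2 (0.985), Arhgap10 (0.983), Mertk (0.982) and Efhd2 (0.976), with Nid1 7th.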

How the data were processed

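Libraries were made from total RNA with an unstranded NEBNext Ultra kit, per the labels' protocols. Both deposited files hold whole-number counts for each gene symbol, with no normalisation. HISAT2 2.1.0, fastp 0.20.0, DESeq2 1.18.1 and GRCm38 are named in the submitters' processing notes, and how reads were counted is not given in the sources used here. Of 18 labelled samples in 9 groups, 14 libraries in 7 groups were used, and the uninduced groups were not analysed here.

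The members, gene lists and tests were chosen with earlier results of these data known. Each table was fitted on its own, and EBs of day 2 were not tested against other cells. In R 4.3.3, edgeR 4.0.16 kept genes by filterByExpr, scaled counts by TMM and ran glmQLFit (robust) and glmQLFTest, two-sided, with Benjamini-Hochberg adjustment over all genes of a fit: 18650 at day 2 (4 libraries), 22294 for the 8 sorted libraries and 22504 with the 2 ES libraries. The SE of a log2 change is its size divided by the square root of the F statistic. TPM used union exon lengths of GENCODE vM21 on GRCm38, found for 25603 and 53336 symbols. The tests were checked on simulated data. Named list genes are the 3 largest called changes in each direction with a mean of at least 1 CPM, except that a gene this rule selects is not reported here; likeness names the 5 highest correlations, with a prior count of 3. Alternatives were RLE scaling, library size alone, no filter, at least 1 CPM in at least 4 libraries, DESeq2 1.42.0, a replicate block, each library left out, transcript length and, added after seeing the data, removal of each library's length trend. Replicates differed by more than sampling noise (chi-square per degree of freedom 4.4 to 20.2).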

Additional observations from a re-analysis of the deposited data

Results flagged for a closer look

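For 9 of the 10 genes the effect of the Msx1 sort differed between day 16 and day 8 by a test of the difference itself, over the same 8 libraries (edgeR, adjusted p = 1.17e-11 to 0.0202). The log2 differences were -3.88 for Col4a1, -3.72 for Col4a2, -4.69 for Lama1, -0.67 for Lama5, -3.29 for Lamb1, -2.43 for Lamc1, -0.5 for Nid1, 0.41 for Nid2 and -1.45 for Sparc. The value of Lama5 lost its call without any 1 of 4 libraries, as given above. All groups hold 2 libraries, so no search for outlying libraries was made.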

How the results depend on the processing

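Of 60 values of the 10 genes in the 6 comparisons without the ES libraries, 40 kept direction and side of the threshold under every alternative run, as did 29 of 40 against the libraries labelled ES. At day 2, Lama5 was 0.02 with library size alone and Lamc1 was -0.05 with the length trend removed, against -0.15 and 0.03 as reported. In the day 8 sort the length trend gave -0.06 for Lama5 and -0.22 for Hspg2, and Hspg2 ran from -0.11 without day 8 positive replicate 2 to 0.34 without replicate 1. In the day 16 sort it gave -0.2 for Hspg2, and Nid1 was 0.03 without day 16 positive replicate 2. The difference between the days for Hspg2 was -0.14 with library size alone, -0.17 without day 8 positive replicate 1 (0.28 without replicate 2), -0.13 without day 16 positive replicate 1 and -0.08 without day 16 negative replicate 1. Against the libraries labelled ES, day 8 positive Hspg2 was 0.08 with library size alone, 0 without ES replicate 1 and 0.13 without day 8 positive replicate 1 (-0.34 without replicate 2), and Lamc1 was -0.08 with the length trend removed. The cause was not tested.

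The count of genes called lower in positive cells of day 8 was 2, with Lama1 added to Nid2, under RLE scaling, the stricter filter, DESeq2, the length trend and the fit of 10 libraries, and 1 to 2 when single libraries were left out. The count called higher for the difference between the days was 0 with library size alone. The count called lower with time in positive cells was 0 to 1 when single libraries were left out. Against ES, the count lower in day 8 negative cells was 1 without a filter and 0 to 2 when single libraries were left out: 0 without ES replicate 1 or day 8 negative replicate 2, and 1 without their partners. In day 16 negative cells it was 0 with library size alone and with DESeq2 and 0 to 1 without single libraries. It was 0 without ES replicate 1 or 2, day 8 negative replicate 1 or 2, or day 16 negative replicate 1. With lengths of the longest transcript the median ratio per length was 1.78 for Col4a1 to Col4a2, 0.443 for Lama1 plus Lama5 to Lamc1, 0.547 for Lamb1 to Lamc1 and 0.529 for Nid1 to Nid2. Without the ES libraries, 2, 2, 1 and 3 of the 5 genes most like Col4a1, Lama1, Lama5 and Sparc were the same.

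Deviations of same-numbered libraries correlated between -0.046 and 0.115. A group of 2 libraries gives 1 deviation per gene, and the length trends above enter it. These values therefore cannot decide whether a replicate number marks a shared culture. With the number as a replicate block, 12883 genes in place of 12524 were called at day 2, and 2 of the 10 genes in place of 1 were called lower in the day 8 sort, Lama1 being the added one (-0.45, adjusted p = 0.0479). Lama5 against ES in day 8 positive cells was no longer called (-0.32, adjusted p = 0.0569), and no other call of the 10 genes changed. Whether depth or the number of 2 libraries a group limits these results more was not tested.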

Other observations

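In Msx1-positive cells, of 16 other basement membrane components 14 were higher and 2 lower at day 16 than at day 8, where 21.1% of all genes were higher and 24.8% lower, with a median log2 change of 1.1 beside -0.03 over all genes tested by edgeR. Col15a1 rose by 2.25 ± 0.077, Frem1, which encodes a protein of the epithelial and mesenchymal junction, by 2.14 ± 0.088, and Smoc2 by 1.68 ± 0.15, while Papln (-1.41 ± 0.19) and Smoc1 (-1.16 ± 0.082) fell. Of 10 other chains tested 5 were higher and 3 lower, and of 13 receptor genes 6 and 4. Among the chains Col4a5 (2.28 ± 0.081), Lama4 (1.77 ± 0.085) and Lama2 (1.61 ± 0.11) rose, and Lama3 (-2.37 ± 0.094) and Lamb3 (-1.19 ± 0.19) fell. The integrin gene Itgb4, for a laminin receptor subunit, fell as well (-1.25 ± 0.097), and Itga1 rose by 2.83 ± 0.14. In Msx1-negative cells Lama3 fell by 0.51 on the log2 scale (SE 0.084).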
